A study of Mus musculus with 3 samples.

Results

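Dividing neural stem cells are described here as they stood in a single-cell RNA library of cultured mouse cortical neural stem cells. They were chosen by their own RNA: cells with at least 200 detected genes, at most 20% of UMIs (unique molecular identifiers, each standing for 1 captured RNA molecule) from mitochondrial genes, and 3 or more UMIs summed over 8 mitosis genes, Top2a, Cenpf, Ube2c, Birc5, Ccnb2, Hmmr, Cdca8 and Ckap2l. These 8 genes are called the selecting genes below. The rule found 481 cells among 9145 kept cells of the library (5.26%, exact 95% binomial interval 4.81 to 5.74), and among 33927 kept cells of the whole series. The dividing cells were compared with cells of the same library that had 0 UMIs of the selecting genes and a like number of UMIs in all.

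The series holds 3 libraries, and each group is 1 library with no replicate. The neural stem cells (NSC) came from C57BL/6 embryonic cortex at E14.5 and grew as neurospheres in Neurobasal with B27, EGF and FGF2 at 20 ng/mL, and the protocol gives their use as the first 3 passages. The Astrocyte library came from cells kept in a serum-containing differentiation medium of DMEM-F12 and B27, and the MIM-Astrocytes library from astrocytes washed and moved to MIM, a serum-free mixture of DMEM-F12 and Neurobasal with B27, N2, FGF2 at 20 ng/mL and metabolites drawn from S-adenosylmethionine, methionine, cysteine, glycine, threonine and putrescine. All 3 are labelled C57BL/6, cortex and E14.5, although the protocol names postnatal cortex as 1 of 2 sources of astrocytes, and which source, metabolite set and day apply to these libraries is not given in the sources used here. All cells were fixed in methanol before the 10x Genomics libraries were made, and the labels do not say how many embryos or cultures were pooled. With 1 library a group there is no test and no p-value: intervals are exact 95% intervals for counting error only and leave out variation between cells and cultures.

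Neural stem cells of the embryonic cortex are radial glia, which divide to renew themselves and to produce neurons, oligodendrocyte precursors and astrocytes, and neurosphere culture with EGF and FGF2 keeps such cells cycling. A cycling cell copies its DNA in S phase, builds the proteins of mitosis in G2, separates its chromosomes on the spindle in M phase and then degrades many of these proteins through the anaphase-promoting complex. Many mitosis genes are switched on together late in the cycle, through promoters that often carry a CCAAT box, bound by NF-Y, and a cell cycle homology region (CHR), bound by the MuvB complex with B-Myb or FoxM1.

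For 6 of the 8 selecting genes (Ube2c and Cdca8 are not printed), the bases just before the start of transcription are shown because these genes were chosen together and the CCAAT and CHR letters are a feature the choice did not use. The sequences are 120 bases from RefSeq on GRCm38.p6, written 5′ to 3′ on the gene's strand and ending at the last base before the start, and capitals mark CCAAT (or ATTGG on the other strand) and the CHR letters TTTGAA or TTCGAA (or TTCAAA on the other strand).
Top2a, chr11:99024190-99024309, minus strand: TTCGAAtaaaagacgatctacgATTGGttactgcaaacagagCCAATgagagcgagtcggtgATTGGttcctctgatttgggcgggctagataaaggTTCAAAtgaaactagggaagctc
Ckap2l, chr2:129297213-129297332, minus strand: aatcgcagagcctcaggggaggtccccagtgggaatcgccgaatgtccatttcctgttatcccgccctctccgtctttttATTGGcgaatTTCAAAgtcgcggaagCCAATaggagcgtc
Ccnb2, chr9:70421555-70421674, minus strand: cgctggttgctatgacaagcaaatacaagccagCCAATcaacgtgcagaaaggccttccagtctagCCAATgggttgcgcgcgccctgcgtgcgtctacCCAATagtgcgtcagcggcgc
Hmmr, chr11:40733438-40733557, minus strand: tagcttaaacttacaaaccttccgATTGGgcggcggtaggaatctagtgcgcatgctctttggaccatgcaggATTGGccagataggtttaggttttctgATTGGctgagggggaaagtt
Cenpf, chr1:189688087-189688206, minus strand: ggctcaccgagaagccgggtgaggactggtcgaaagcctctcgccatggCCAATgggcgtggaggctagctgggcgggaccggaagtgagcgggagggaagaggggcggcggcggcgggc
Birc5, chr11:117849117-117849236, plus strand: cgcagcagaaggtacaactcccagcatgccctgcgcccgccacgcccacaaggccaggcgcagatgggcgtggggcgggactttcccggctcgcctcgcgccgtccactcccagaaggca
Top2a held 3 CCAAT boxes and 2 CHR matches in these 120 bases, and Ckap2l held 2 CCAAT boxes with a CHR match 30 bases before the start. In Ccnb2 and Hmmr the stretch held 3 CCAAT boxes each and no CHR letters, which lie at base 5 after the start and 167 bases before it in Ccnb2 and at base 9 after the start in Hmmr. Cenpf held 1 CCAAT box here and CHR letters at base 3 after the start. The window of Birc5, the survivin gene, held neither set of letters, which says only that these letters are not in it.

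Over the whole RefSeq window of 250 bases before to 50 after the start, 7 of the 8 selecting genes held both a CCAAT box and a CHR match (87.5%). Both were found in 29.8% of 168 promoters of the genes called higher in dividing cells beyond the selecting genes (135 of 173 such genes matched a promoter by symbol; the call is defined below). Among 54 promoters of called genes of the 4 mitosis lists the share was 46.3%. It was 4.88% over 2540 promoters of tested genes that were not called higher, 7.14% over 14 promoters of genes called lower and 7.52% over all 32851 promoters in the table. CHR letters alone were in 39.9% of the promoters of called genes and in 12.1% of those not called. The letters TTTGGCGC or TTTCGCGC (or their reverse complements), a common form of the E2F site of S phase genes, were in 30.8% of 13 promoters of called DNA replication genes, that is 4 promoters, in 7.41% of those of called mitosis genes, in 1.42% of those of tested genes not called higher and in 0.813% of all. A match is a description of letters, not a bound site.

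The NSC library was shallow, with 14696853 UMIs in 9157 barcodes and a median of 1379 UMIs and 653 genes in a kept cell, against medians of 5089 and 3156 UMIs in the Astrocyte and MIM-Astrocytes libraries. Every deposited barcode had at least 500 UMIs. Of the NSC barcodes, 57 (0.622%) were also found in another library, and 0 of the 481 dividing cells were among them. At the median, dividing cells had more UMIs than most cells of the library. They held 607 UMIs at the lowest, 2403 at the median and 26782 at the highest, with a median of 1069 genes. The rule counts UMIs of the selecting genes, so a cell with more UMIs in all meets it more easily. The higher total is therefore partly fixed by the choice, and whether dividing cells held more RNA was not tested. To compare like with like, each dividing cell was paired with the unused cell without selecting-gene UMIs that was nearest in total UMIs, within 10%. A match was found for 472 of 481 cells, with a median of 2375 UMIs in both pools, and the 9 cells left unmatched held 10463 to 26782 UMIs. UMIs were summed over each pool and scaled to a common total as CPM, the usual unit for counts of libraries of unequal size, from pool totals of 1275745 and 1266287 UMIs.

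The label was set beside marker genes. Of 472 matched dividing cells, 468 (99.2%) had a UMI of Top2a, Cenpf, Ube2c or Birc5, which the choice fixes. Markers of neural stem cells (Sox2, Nes, Hes5, Hes1, Fabp7, Slc1a3, Vim, Egfr, Pax6 and Sox9) were found in 472 of 472 dividing cells and 466 of 472 matched cells, and their summed level was 6906 CPM against 6119 CPM. Fabp7 alone gave 5810 of their 8810 UMIs in dividing cells and 4872 of 7748 in matched cells. The fuller list of 31 stem cell and radial glia genes leaned the other way, at 15193 against 16394 CPM (0.927, 0.909 to 0.945). Fabp7 and Sox2 were also found in 96.0% and 54.0% of the deeper Astrocyte cells, so their detection alone does not set stem cells apart from astrocytes here. Their levels were 4554 and 298 CPM in dividing NSC and 1793 and 168 CPM in the Astrocyte library. Hes5, Egfr and Nes of the same set were found in 32.8%, 27.5% and 40.3% of dividing cells. In Astrocyte cells these shares were 0.652%, 2.53% and 23.0%. Markers of some other cell types were absent or rare: 7 of 7 microglia markers were at 0 in both pools, as were 4 of 6 endothelial and mural markers (Cldn5, Kdr, Rgs5 and Pdgfrb). Of 5 fibroblast markers, Col1a2, Col3a1, Dcn and Lum were at 0, and Col1a1 had 5 UMIs. Neuron markers stood at 149.7 CPM in dividing and 295 CPM in matched cells, with Stmn2 and Neurod1 at 0. Astrocyte markers (Gfap, Aqp4, S100b, Aldoc, Clu and Slc6a11) stood at 114 against 234 CPM, and at least 1 UMI of them was in 21.6% and 35.6% of cells. Oligodendrocyte precursor markers were not rare as a sum: they stood at 514 against 1083 CPM, with a UMI in 237 of 472 dividing cells (50.2%) and 340 of 472 matched cells (72.0%). Olig1 alone gave 482 of their 656 UMIs in dividing cells and 1094 of 1372 in matched cells. It was also found in 36.5% of the deeper Astrocyte cells. Pdgfra was found in only 2.12% of dividing and 4.66% of matched cells, so these shares do not count precursor cells.

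**Figure D1:**
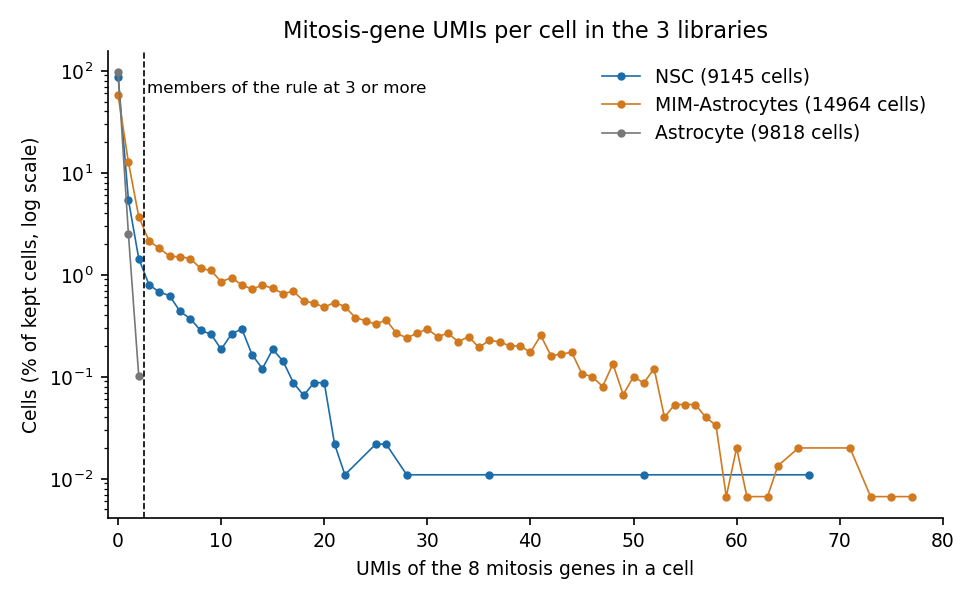
UMIs of the 8 mitosis genes per cell (x axis) against the share of kept cells of each library (y axis, log scale), 1 line per library. The dashed line marks the rule of 3 or more UMIs: 481 of 9145 NSC cells, 3903 of 14964 MIM-Astrocytes cells and 0 of 9818 Astrocyte cells lie right of it.

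The selecting genes are given as a description, since they chose the cells. Cells with 0, 1 and 2 such UMIs numbered 8036, 496 and 132, and dividing cells held a median of 7 and at most 67. Just inside the threshold, 73 cells had exactly 3 UMIs, with a median of 2032 UMIs in all, and just outside it the 132 cells with 2 had a median of 1535. Only 8 dividing cells (1.66%) owed their place to a single gene, and 14 (2.91%) held all 8. Cenpf, a kinetochore protein of G2 and mitosis, was detected in 80.2% of the 481 cells with 973 UMIs. Top2a, the topoisomerase that untangles sister DNA, was found in 66.1%, and Ube2c, the E2 enzyme of the anaphase-promoting complex, in 59.5%. Cdca8 (borealin) and Birc5, both of the chromosomal passenger complex, were found in 57.2% and 47.2%. Ckap2l, a spindle protein, was in 52.4%, Ccnb2 (cyclin B2) in 44.5% and Hmmr, a spindle assembly factor, in 30.8%.

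A gene was counted as higher or lower where the log2 ratio of CPM, with 10 CPM added to both pools, was at least 1 in size and 1 pool reached 50 CPM. Of 2705 genes at that level, 181 were higher in dividing cells (6.69%), 173 of them beyond the selecting genes, and 12 were lower (0.444%). The choice of cells used this contrast, so these counts describe the cells and test nothing. The median log2 ratio of the 2705 genes was 0.06. Ratios below are CPM ratios without the added 10 CPM, with their counting interval. Where the matched pool held 0 UMIs, the ratio is a lower bound set by a floor of 3 counts over the pool.

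Ranked by the log2 ratio with 10 CPM added, Prc1 and Pttg1 led the genes beyond the selecting genes. Prc1, which bundles the microtubules of the central spindle, had 2575 UMIs in dividing cells and 14 in matched cells, 183-fold higher (109 to 334). It was found in 79.2% of dividing cells, with 0 UMIs at the lowest, 4 at the median and 26 at the highest in a cell, in 2.75% of matched cells, and in 0.418% of Astrocyte cells at their median depth of 5089 UMIs. Prc1 (ENSMUSG00000038943), a protein-coding gene, lies on mm10 at chr7:80294450-80316259. Pttg1, or securin, which holds separase in check until anaphase, had 2642 UMIs in dividing cells and 32 in matched cells, 82.0-fold higher (57.9 to 120.1). It was found in 87.5% of dividing cells and 6.36% of matched cells, beside 10.8% of the deeper Astrocyte cells.

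The anaphase-promoting complex list split by role. Of its 20 genes 13 reached 50 CPM, and 6 were higher and 0 lower. The list's log2 ratios had a median of 0.51 over 17 genes with a mean of 20 CPM or more, against 0.02 over all 4793 such genes. The higher ones were mostly regulators and partners: Pttg1, Fbxo5 (Emi1, an inhibitor of the complex; at least 36.1-fold higher), Cdc20 (its mitotic activator; 62.5-fold higher, 17.0 to 522) and Ube2s, the chain-extending E2 enzyme (5.21-fold higher, 4.09 to 6.72). Bub3, of the spindle checkpoint, was 2.91-fold higher (2.08 to 4.15). Among core subunits, Anapc15 was 3.10-fold higher (1.95 to 5.07), while Anapc10 (0.882, 0.620 to 1.25) and Cdc26 (0.993, 0.720 to 1.37) had ratios whose intervals span 1 and Anapc5 had 1.44 (1.01 to 2.06).

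Of 22 mitotic cyclins, kinases and phosphatases, 11 reached 50 CPM, and all 11 were higher. The summed level of the list was 1764 CPM in dividing cells and 57.6 CPM in matched cells. Cdk1, the kinase that drives entry into mitosis, had 452 UMIs in dividing cells and 8 in matched cells, 56.1-fold higher (28.2 to 131). Ccna2 (cyclin A2) had 276 against 1 UMIs, a ratio of 274 (48.8 to 10859), and Ccnb1 (cyclin B1) had 113 against 1 UMIs, a ratio of 112 (19.7 to 4469). Cdca3, a trigger of mitotic entry outside this list, had 202 against 2 UMIs, a ratio of 100.3 (27.4 to 833). Plk1, which matures centrosomes and triggers mitotic entry, had 101 against 0 UMIs and was at least 33.4-fold higher. Bub1, a checkpoint kinase, was at least 24.2-fold higher, and Cks2, a small partner of Cdk1, was 22.6-fold higher (13.0 to 42.9). Aurkb and Aurka, the Aurora kinases, had 51 against 0 UMIs and 53 against 1 UMIs and stayed under 50 CPM.

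All 16 kinetochore and centromere genes at 50 CPM were higher, out of 23 listed genes. Cenpa, the histone variant that marks centromeres, had 890 UMIs in dividing cells and 15 in matched cells, 58.9-fold higher (35.5 to 106), and was detected in 70.8% against 2.97% of cells and in 1.48% of Astrocyte cells. Sgo1 (shugoshin), the guardian of centromeric cohesion, had 280 against 1 UMIs, a ratio of 278 (49.5 to 11016). Spc25, of the microtubule-binding Ndc80 complex, was 47.6-fold higher (20.1 to 148), and Cenpe, a kinetochore motor, was 31.3-fold higher (16.3 to 69.2). Cenpx, of the inner kinetochore, was near the size rule at 2.33 (1.91 to 2.86).

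Among 29 genes of the spindle, kinesins and cytokinesis, 20 of the 21 at 50 CPM were higher. Nusap1, which bundles spindle microtubules around chromosomes, was 111-fold higher (47.3 to 343), Tpx2, the activator of Aurora A on the spindle, was 66.0-fold higher (25.5 to 244), and Ckap2, a spindle-associated protein, had 300 against 3 UMIs and was 99.3-fold higher (33.6 to 484). Aspm, a spindle pole protein needed for symmetric divisions of radial glia, had 195 against 0 UMIs and was at least 64.5-fold higher. Kif4, a chromosome-bound kinesin, had 156 against 0 UMIs and was at least 51.6-fold higher. The gene of this list that was not higher was Kif5b, the conventional kinesin of cargo transport, at 0.837 (0.660 to 1.06). Arl6ip1, an endoplasmic reticulum-shaping protein placed in this list, had 3342 against 679 UMIs and was 4.89-fold higher (4.5 to 5.31).

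Tubulin genes differed among themselves. Of 15 tubulin and stathmin genes, 8 reached 50 CPM and 4 were higher. These were Tuba1b (7.05-fold higher, 5.76 to 8.69), Tubb4b (7.01-fold higher, 4.83 to 10.5), Tubb5 (3.20-fold higher, 2.88 to 3.56) and Stmn1, a microtubule-destabilising phosphoprotein (5.74-fold higher, 4.76 to 6.97). Tuba1a, the alpha-tubulin of developing neural cells, stood at 852 CPM against 763 CPM, a ratio of 1.12 (1.02 to 1.22), and Tubb2b had 1.07 (0.929 to 1.23).

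Chromosomal proteins were higher as a list. Of 24 genes of chromosome condensation and chromatin, 19 reached 50 CPM and 15 were higher, the median log2 ratio was 2.06, and their summed level was 18548 CPM against 5985 CPM. H2afz, the histone variant H2A.Z, stood at 3206 CPM against 546 CPM, 5.88-fold higher (5.42 to 6.38). Hmgb2, a DNA-bending protein of cycling cells, was found in 86.7% of dividing and 12.9% of matched cells and was 19.5-fold higher (15.4 to 25.1). It was also found in 24.1% of the deeper Astrocyte cells. Smc2 and Smc4, the core of condensin, were 15.1-fold higher (9.99 to 23.9) and 12.3-fold higher (8.82 to 17.8). Mki67, the gene of the proliferation antigen Ki-67, was shallow here, with 193 against 3 UMIs in 32.6% and 0.636% of cells and in 0 Astrocyte cells. Lmnb1 and Lbr, of the nuclear lamina, were 7.35-fold higher (5.07 to 11) and 3.75-fold higher (2.20 to 6.70). The heterochromatin proteins Cbx1, Cbx3 and Cbx5 had ratios of 1.65, 1.63 and 1.63 and were not counted.

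DNA replication genes were higher in dividing cells, most by smaller factors than most of the mitosis genes named above. Of 52 listed, 16 reached 50 CPM and 12 were higher, and the median log2 ratio over 22 genes was 1.40. The medians were 2.94 to 3.25 for the lists of mitotic kinases, spindle and kinetochore, but 0.51 for the anaphase-promoting complex list. Both pools were chosen by mitosis genes, and 69.9% of matched cells had a UMI of the replication list. The contrast of these medians is therefore a description. Pclaf, a PCNA-binding factor of S phase, led with 1019 UMIs in dividing cells and 31 in matched cells, 32.6-fold higher (22.8 to 48.3). Gmnn (geminin), which blocks a second round of replication in 1 cycle, was 14.0-fold higher (7.60 to 28.6), and Lig1, the ligase of Okazaki fragments, was 8.01-fold higher (4.58 to 15.1). Pcna, the sliding clamp, had 74 against 19 UMIs and was 3.87-fold higher (2.31 to 6.78). Of 20 nucleotide synthesis genes 10 reached 50 CPM and 6 were higher. Among these were Rrm2, the regulated subunit of ribonucleotide reductase (120 against 2 UMIs, a ratio of 59.6, 16.1 to 497) and Tyms, thymidylate synthase (10.4, 5.59 to 21.4). Purine enzymes of that list were not higher, as Gmps at 1.04 (0.762 to 1.42) and Paics at 1.32 (1.03 to 1.68).

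Replication-type histone RNA mostly lacks the poly(A) tail that such libraries capture, and 2 of 63 genes reached 50 CPM. Hist1h1b had 64 against 1 UMIs (a ratio of 63.5, 11 to 2548), and Hist1h2bc had 185 against 111 UMIs, a ratio of 1.65 (1.30 to 2.11). In cohesin, 8 of 13 genes reached 50 CPM and 3 were higher: Esco2, the acetyltransferase that locks cohesin on in S phase (28.8-fold higher, 10.9 to 107), Rad21 (4.94-fold higher, 3.68 to 6.75) and Smc1a (2.64-fold higher, 2.14 to 3.28), while Smc3 had 1.16 (0.906 to 1.48). In DNA damage and repair, 3 of 24 genes reached 50 CPM and all 3 were higher. Of 14 genes of nuclear pore and import 5 reached it and 3 were higher: Ranbp1 at 2.10 (1.82 to 2.43), Rangap1, the GTPase activator of Ran, at 13.6 (5.97 to 38.0), and Ran itself at 2.32 (2.09 to 2.57). Of 36 G1 cyclins, inhibitors, E2F and pocket proteins 11 reached 50 CPM, and the others were not tested. Of the 11 only the inhibitors Cdkn2d (p19, 5.36-fold higher, 3.07 to 10.0) and Cdkn2c (p18, 2.42-fold higher, 1.61 to 3.73) were higher. Of 9 genes of the B-Myb, FoxM1 and MuvB complex 2 (Rbbp4 and Tfdp2) reached 50 CPM and 0 were called. The regulators that name this complex were under 50 CPM and so not tested: Foxm1 had 38 against 1 UMIs, a ratio of 37.7 (6.37 to 1528), Mybl2 (B-Myb) had 12 against 0 UMIs, and Lin9, of MuvB, had 34 against 7 UMIs, a ratio of 4.82 (2.10 to 12.9). The G1 cyclins Ccnd1 and Ccnd2 had ratios of 0.791 (0.545 to 1.14) and 0.817 (0.656 to 1.02).

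Across all 9145 kept cells, sorted by their selecting-gene UMIs, mitosis and replication genes followed different courses. Cells with 0, 1, 2, 3 to 5, 6 to 10 and 11 or more such UMIs numbered 8036, 496, 132, 192, 141 and 148, with median UMIs of 1360, 1386, 1535, 1876.5, 2395 and 2906.5, so depth moves with the sorting. The summed level of mitotic cyclins, kinases and phosphatases was 51.0, 166, 453, 913, 1422 and 2542 CPM in these classes, higher in each than in the one before. DNA replication genes stood at 637, 1171, 2423, 2599, 2976 and 2769.7 CPM, so that cells with 2 selecting-gene UMIs, outside the rule, were already near the level of the dividing cells. Replication-type histones were highest in the class with 2, at 625 CPM, against 329 and 356 CPM in the top classes and 205 CPM in cells with 0. The share of UMIs from Malat1, a nuclear noncoding RNA, was 28.3, 22.6, 18.5, 19.1, 21.0 and 19.0%, and the part of depth and Malat1 in these levels was not tested. By gene, Plk1 went from 16.9 CPM in the class with 2 to 136 CPM in the class with 11 or more, and Ccnb1 from 23.7 to 146 CPM. Pclaf was at 608 CPM in the class with 2 and at 752 CPM in the class with 11 or more. The stem cell list stood at 15423 CPM in cells with 0 and at 15241 CPM in the top class, and the oligodendrocyte list at 1464 and 956 CPM. The sorting genes are themselves mitosis genes, so the course of the mitosis lists is a description.

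**Figure D2:**
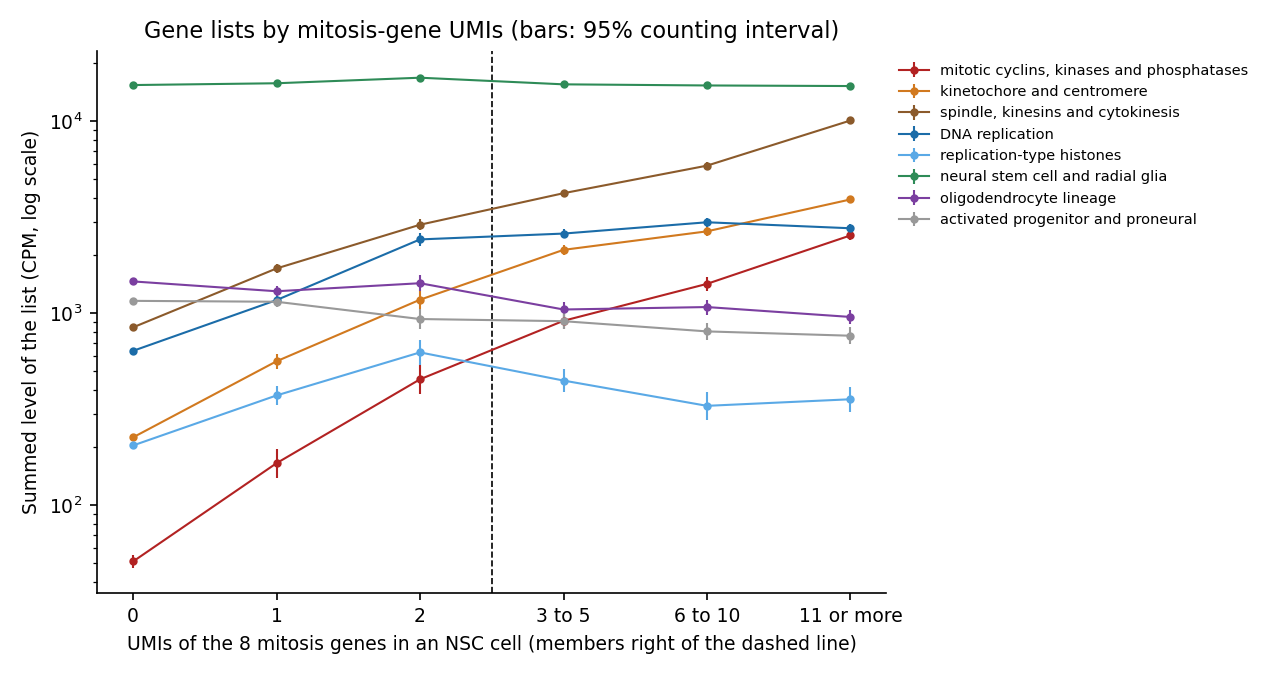
Summed level of 8 gene lists (y axis, CPM, log scale, bars are 95% counting intervals) in NSC cells sorted by UMIs of the 8 mitosis genes (x axis), with the dividing cells right of the dashed line. Mitosis lists climb through every class, DNA replication flattens from the class with 2 UMIs on, the stem cell list is level, and the oligodendrocyte and proneural lists are lower in the dividing classes than in cells with 0.

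Cell by cell, 442 of 472 matched dividing cells (93.6%) had a UMI of the DNA replication list and 427 (90.5%) one of the mitotic cyclins and kinases list. Both were present in 407 and neither in 10. Among matched cells the counts were 330 (69.9%), 63 (13.3%), 51 and 130. These shares count cells with a single UMI too and were not set against a background level.

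The stem cell list as a whole stood close to the level of matched cells, with some members apart. Of 31 stem cell and radial glia genes 23 reached 50 CPM and 1 was higher, none lower. The median log2 ratio of 27 of them was -0.06 with 11 above 0, or -0.20 with Malat1 left out of the totals, which moved the median of all genes by -0.14. Sox2, the transcription factor of neural stem cell identity, had 380 UMIs in dividing cells and 392 in matched cells, and 232 of 472 cells (49.2%) in both pools had a UMI, a ratio of 0.962 (0.833 to 1.11). Pax6, which specifies cortical radial glia, was the gene that was higher, at 81.5 CPM against 33.2 CPM, 2.46-fold higher (1.70 to 3.61), a call that was lost without Malat1 in the totals (2.21). Nes, the intermediate filament nestin, stood at 202 CPM against 122 CPM (1.66, 1.36 to 2.04) and was found in 40.3% of dividing and 27.1% of matched cells. Hes1 and Hes5, the Notch effectors that hold progenitors undifferentiated, had ratios of 1.70 (1.30 to 2.24) and 1.31 (1.09 to 1.56), but Hes5 stood at 0.998 with cells also paired on Malat1 UMIs. Fabp7, the fatty acid binding protein of radial glia, had a median of 10 UMIs in a dividing and 7 in a matched cell, 0 at the lowest in both, and 84 and 95 at the highest. The cells of the pools overlap almost fully in Fabp7, and its ratio of 1.18 (1.14 to 1.23) turned to 0.930 with cells also paired on Malat1.

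Some genes of the list had ratios below 1. Mt3, a metallothionein, was at 1613 CPM against 2555 CPM, 1.58-fold lower (1.5 to 1.67), Ednrb, the endothelin B receptor, was 1.5-fold lower (1.34 to 1.68), Bcan, a matrix proteoglycan, was 1.28-fold lower (1.12 to 1.46), Ttyh1 was 1.26-fold lower (1.12 to 1.43), and Ptprz1, a receptor phosphatase, was 1.22-fold lower (1.15 to 1.29). None of these reached the size rule. Egfr, the receptor of the EGF in the medium, had 173 against 161 UMIs, a ratio of 1.07 (0.856 to 1.33) whose interval spans 1, and 0.960 with Malat1 left out of the totals, a scaling that moves every gene alike. Of 20 genes of FGF, EGF and MAPK feedback only 3 reached 50 CPM and 0 were called, too few to describe the list. Spry2, a feedback inhibitor with 1383 against 1229 UMIs, had 1.12 (1.03 to 1.21), or 0.905 with cells also paired on Malat1.

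In the oligodendrocyte lineage list all tested genes had ratios below 1 in dividing cells, and 1 of them passed the size rule. Of 25 listed, 7 reached 50 CPM, 1 was called lower and 0 higher, and the list's median was -0.77 against 0.02 over all genes with a mean of 20 CPM. Olig1 (ENSMUSG00000046160), a transcription factor of the lineage, had 482 UMIs in dividing cells and 1094 in matched cells, 2.29-fold lower (2.05 to 2.55). A UMI of it was found in 44.1% of dividing cells, with a median of 0 and at most 16 in a cell, and in 64.0% of matched cells, with a median of 1 and at most 40, so the cells of the pools overlap. Over all 8036 unmatched cells with 0 selecting-gene UMIs Olig1 stood at 598 CPM, lower than the 864 CPM of the matched cells, and against them dividing cells had a ratio of 0.736, which is under the size rule. Olig2 had 121 against 214 UMIs, 1.78-fold lower (1.42 to 2.25), Cspg5 was 1.92-fold lower (1.52 to 2.45), Sirt2 was 2.06-fold lower (1.55 to 2.75) and Cnp, a myelin enzyme, was 1.76-fold lower (1.42 to 2.20). Pdgfra, the receptor that marks oligodendrocyte precursors, was rare, with 16 against 26 UMIs and an interval that spans 1 (0.611, 0.306 to 1.18).

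The astrocyte list leaned the same way. Of 28 genes 14 reached 50 CPM and 0 were called, 17 of 19 with a mean of 20 CPM had log2 ratios below 0, and the median was -0.60. Sparcl1, a secreted matrix protein of astrocytes, stood at 255 CPM against 479 CPM, 1.88-fold lower (1.64 to 2.16). Aldoc, Gja1 (connexin 43) and S100b were 2.19-fold lower (1.53 to 3.18), 2.11-fold lower (1.55 to 2.90) and 2.21-fold lower (1.29 to 3.89). Cst3 (cystatin C), a secreted protease inhibitor, was at 4080.0 CPM against 4919.9 CPM, 1.21-fold lower (1.16 to 1.25). Atp1b2, a glial sodium pump subunit, went against the list at 1.32 (1.11 to 1.57). Gfap, the intermediate filament of mature astrocytes, had 0 UMIs in dividing cells and 2 in matched cells, and Aqp4 had 8 against 21 UMIs.

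Proneural, Notch and neuronal genes were mostly at or below the level of matched cells. Of 19, 22 and 27 genes of these lists 7, 7 and 4 reached 50 CPM, 0, 0 and 1 were higher, none were lower, and the median log2 ratios were -0.22, -0.13 and -0.15. Sox4, which acts in committed and differentiating progenitors, was at 313 CPM against 558 CPM, 1.78-fold lower (1.57 to 2.02). Gadd45g and Btg2, both linked to cell cycle exit, were 2.48-fold lower (1.52 to 4.16) and 2.23-fold lower (1.5 to 3.39). The Notch ligands Dll3 and Dll1 had 13 against 62 UMIs and 8 against 19 UMIs, and Dll3 was 4.80-fold lower (2.61 to 9.53). The receptors Notch1 and Notch2 had 1.09 (0.780 to 1.53) and 0.909 (0.808 to 1.02). Dcx, of migrating neurons, had 4 UMIs in both pools, and Map2, a dendritic microtubule protein, was 1.86-fold lower (1.55 to 2.24), short of the size rule. The neuronal gene that was higher was Nrgn (neurogranin), a calmodulin-binding protein of neurons, at 207 CPM against 69.5 CPM, 2.98-fold higher (2.33 to 3.83).

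**Figure D3:**
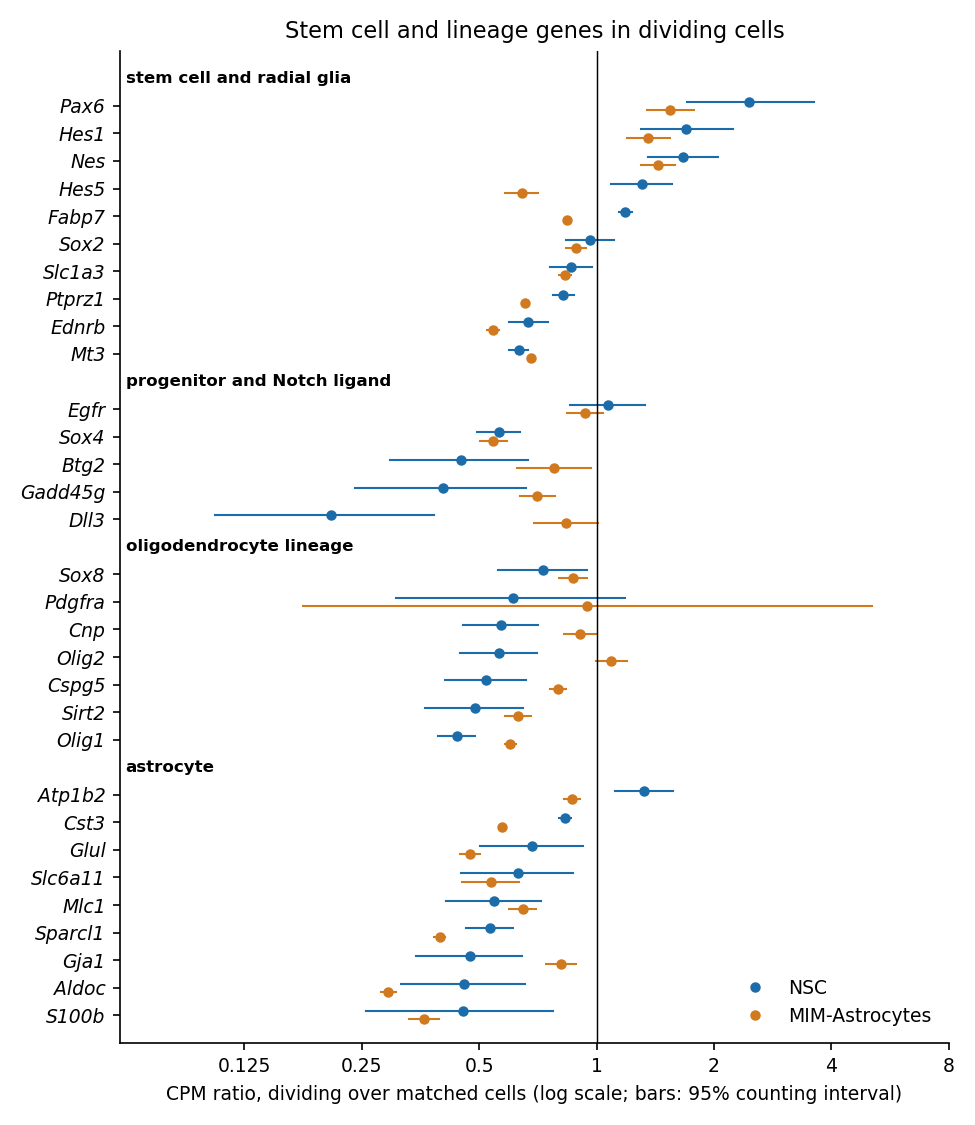
CPM ratio of dividing over matched cells (x axis, log scale, bars are 95% counting intervals) for stem cell, progenitor, oligodendrocyte and astrocyte genes, in NSC (blue) and MIM-Astrocytes (orange). In NSC, Pax6, Hes1, Nes, Hes5 and Fabp7 lie right of 1 and the points of all oligodendrocyte genes left of it, with the interval of Pdgfra across it. Hes5, Fabp7 and Atp1b2 lie on opposite sides of 1 in the 2 libraries, although Hes5 and Fabp7 stood at 0.998 and 0.930 in NSC with cells also paired on Malat1.

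Besides Olig1, 11 genes were called lower: Ppp1r16b, Thrsp, Chd3, Prss23, Nav2, Rnase1, Slc22a17, Smoc1, Ppp2r2b, Chd7 and Pcdh11x. Ppp1r16b, a regulator of protein phosphatase 1, had 22 UMIs in dividing cells and 108 in matched cells, 4.95-fold lower (3.11 to 8.22). Chd3, an ATPase of the NuRD chromatin complex, had 21 against 87 UMIs (4.17-fold lower, 2.57 to 7.08), and Chd7, another chromatin remodeller, had 127 against 266 UMIs (2.11-fold lower, 1.70 to 2.63). Prss23, a secreted serine protease, had 73 against 224 UMIs (3.09-fold lower, 2.36 to 4.08). Thrsp, a lipogenic factor, was 3.79-fold lower (2.58 to 5.71), and Smoc1, a matrix protein that marks early oligodendrocyte precursors, was 2.15-fold lower (1.70 to 2.72). Rnase1, a secreted ribonuclease, was 2.69-fold lower (2.05 to 3.55) over all pairs, but in the 158 pairs with the fewest UMIs its ratio was 1.17 (0.501 to 2.76). The other lower genes had ratios between 0.329 (Nav2) and 0.449 (Ppp2r2b). Prss23 was called lower under all 19 alternatives, while Olig1, Chd7, Pcdh11x, Ppp2r2b, Smoc1, Slc22a17, Rnase1, Thrsp, Chd3, Nav2 and Ppp1r16b lost the call under at least 1 and kept their direction.

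Chromatin methylation genes split. Ezh2, the histone H3 lysine methyltransferase of the Polycomb complex, was at 227 CPM against 49.0 CPM, 4.64-fold higher (3.52 to 6.21), and Dnmt1, the maintenance DNA methyltransferase, had 71 against 28 UMIs, 2.52-fold higher (1.60 to 4.05). Kdm6b, a demethylase of the Polycomb mark, was 1.95-fold lower (1.66 to 2.30) and Kdm5b 2.07-fold lower (1.55 to 2.79), both short of the size rule. Of the 39 genes of the list 13 reached 50 CPM, 2 were higher, and the median log2 ratio of 25 genes was -0.02. One-carbon and methionine cycle genes, whose metabolites enter the MIM medium, gave no call in dividing cells: 8 of 31 genes reached 50 CPM and 16 genes of the list with a mean of 20 CPM had a median log2 ratio of 0.04. Of the list, Phgdh, the first enzyme of serine synthesis, had 0.832 (0.711 to 0.972), Mat2a, which makes S-adenosylmethionine, had 1.03 (0.682 to 1.57), and Gcsh, of the glycine cleavage system, had 1.83 (1.40 to 2.40). Among glycolysis genes 0 of 10 at 50 CPM were called, and Ldhb was 1.60-fold lower (1.46 to 1.77). Over all 2705 tested genes 6.69% were higher and 0.444% lower. At that share 0 calls among 8 or 10 genes do not set the one-carbon or glycolysis list apart. Of 27 immediate early genes, which respond to handling, only 4 reached 50 CPM and 0 were called. Fos had 18 against 25 UMIs and Egr1 60 against 99 UMIs. The list median was -0.19, and the summed level of the list had a ratio of 0.729 (0.654 to 0.812).

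Malat1 took up a different share of the pools, and that share enters every ratio through the totals. It was 19.4% of UMIs in dividing cells and 27.5% in matched cells, with a median of 431 and 665.5 UMIs in a cell, while mitochondrial genes took 1.36% and 1.46%. With Malat1 left out of the totals, the median log2 ratio of the genes at 50 CPM moved by -0.14, and with pairing on total and Malat1 UMIs it moved by -0.12. Without Malat1 in the totals 3370 genes reached 50 CPM, 188 were higher and 52 lower, so that 78.3% of calls were higher in place of 93.8%. This scaling moves every ratio alike, and the higher calls were 181 and the lower 12 of 2705 genes before it. Olig1 stood at a ratio of 0.394, Nes at 1.5, Hes5 at 1.17, Fabp7 at 1.07, Sox2 at 0.866 and Egfr at 0.960, without a change in their order. Pairing cells on total and Malat1 UMIs both, an alternative chosen after seeing the data, kept 446 pairs with 20.2% and 20.7% Malat1. It gave 165 genes higher, 157 of them among the 181, and 28 lower, 9 of them among the 12. Nes then had 1.35, Pax6 2.31, Olig1 0.378 and Mt3 0.604, while Hes5 was at 0.998, Egfr at 0.940 and Fabp7 at 0.930. In the main pairs Hes5, Egfr and Fabp7 had 1.31, 1.07 and 1.18. The direction of Fabp7 and Egfr thus turned, although the main interval of Egfr spans 1, and Hes5 became level. The part of Malat1 in these ratios was not tested beyond these values.

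The ratios were also taken in 3 groups of pairs by depth (607 to 1931, 1931 to 2896 and 2903 to 17841 UMIs, with 158, 157 and 157 pairs). Olig1 had ratios of 0.431, 0.490 and 0.419 from the shallowest to the deepest group, and Sox4 had 0.453, 0.581 and 0.593. Nes kept 1.81, 1.89 and 1.5, and Pax6 went from 3.86 (1.64 to 10.5) in the shallowest to 1.67 (0.974 to 2.93) in the deepest. Mt3 had 0.839, 0.664 and 0.574, and Cst3 had 1.03 (0.943 to 1.13) in the shallowest and 0.737 (0.70 to 0.775) in the deepest. Fabp7 had 1.45 (1.32 to 1.59) in the shallowest and 1.13 (1.07 to 1.19) in the deepest, and Malat1 0.579, 0.704 and 0.752. Stmn1 (5.36, 5.81 and 5.83) and Tuba1b (6.5, 7.92 and 6.59) were near each other in all 3 groups. Pcna rested on the deeper pairs, with 0.333 (0.00635 to 4.15) in the shallowest group.

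The same rule was applied to the other libraries to place the NSC dividing cells. It found 3903 of 14964 MIM-Astrocytes cells (26.1%, 25.4 to 26.8) and 0 of 9818 Astrocyte cells (0%, 0 to 0.0376). In the Astrocyte library 256 cells (2.61%) had at least 1 selecting-gene UMI, at a median depth of 5089 UMIs. After thinning every cell to 1000 UMIs, which left out 1457 NSC, 973 MIM-Astrocytes and 351 Astrocyte cells, 280 of 7688 NSC cells met the rule (3.64%, 3.23 to 4.09). The counts were 2225 of 13991 MIM-Astrocytes cells (15.9%, 15.3 to 16.5) and 0 of 9467 Astrocyte cells. Thinned to 2000 UMIs, where only 1615 NSC cells remained, the NSC share was 15.5% (13.7 to 17.3) and the MIM-Astrocytes share 26.6% (25.8 to 27.4). The order of the libraries was the same at each depth, and the culture media differed with the libraries and cannot be told apart from them.

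Dividing cells of the MIM-Astrocytes library were described against their own matched cells (3749 pairs, 4219 UMIs at the median). There 272 of 2574 genes were higher (10.6%) and 23 lower (0.894%). Beyond the selecting genes, 134 genes were higher in both libraries, 77.5% of the 173 in NSC and 50.8% of the 264 in MIM-Astrocytes, and all 173 had a log2 ratio above 0 in MIM-Astrocytes. Over 2131 genes tested in both, the log2 ratios of the libraries had a Pearson r of 0.879 across genes, and 0.576 over the 1882 called in neither. Genes are not independent and both sets were chosen by the same selecting genes, so this r is a description. Of the lower genes 1, Ppp2r2b, was called in both, 8.33% of 12 and 4.35% of 23. Of the 12 genes lower in NSC, 11 had a log2 ratio below 0 in MIM-Astrocytes, where only Ppp2r2b, Slc22a17, Olig1, Prss23 and Thrsp reached 50 CPM. The median over all genes tested there was 0.19. Among the 11, Nav2 (0.996, 0.882 to 1.13), Pcdh11x (0.894, 0.755 to 1.06) and Rnase1 (0.624, 0.369 to 1.04) had intervals that span 1. So did Chd3, the gene above 0 (1.26, 0.818 to 1.96).

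**Figure D4:**
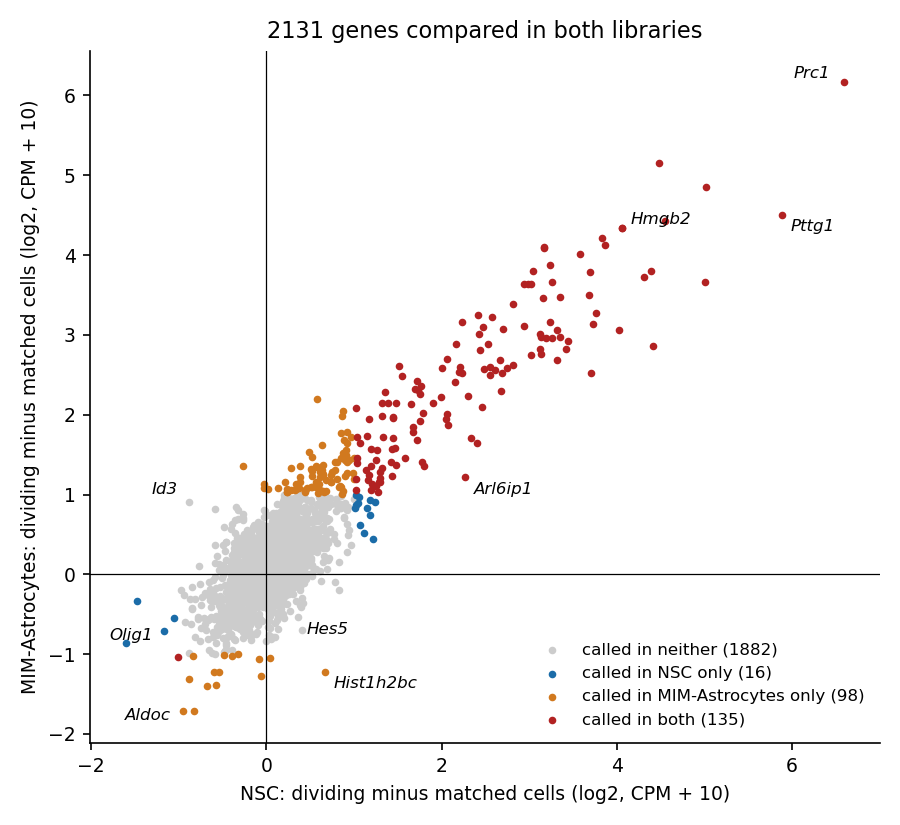
Log2 ratio of dividing over matched cells (CPM + 10) in NSC (x axis) and MIM-Astrocytes (y axis) for the 2131 genes tested in both without the selecting genes. The 135 genes called in both lie along the diagonal, and Hist1h2bc, Hes5 and Id3 lie where the signs differ (Hes5 at 0.998 in NSC with cells also paired on Malat1).

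Mitosis genes were higher in both libraries, as Cdk1 at 56.1 (28.2 to 131) in NSC and 59.9 (52.4 to 68.8) in MIM-Astrocytes. Prc1 had 183 (109 to 334) and 112 (99.1 to 126), while Pttg1 had 82.0 (57.9 to 120.1) and 26.0 (24.4 to 27.6). Of the replication genes at 50 CPM, 19 of 20 were higher in MIM-Astrocytes and 12 of 16 in NSC, with list medians of 1.93 and 1.40. The oligodendrocyte list was nearer to level there, at -0.25 against -0.77, with Olig2 at 1.09 (0.994 to 1.20) and Olig1 at 0.601 (0.581 to 0.623). The astrocyte list was low in both, -0.78 and -0.60, and in MIM-Astrocytes 6 of its genes were called lower, among them Aldoc at 0.292 (0.280 to 0.305) and Sparcl1 at 0.396 (0.384 to 0.409). Pax6 and Nes were above 1 in both libraries, at 1.55 (1.35 to 1.78) and 1.44 (1.30 to 1.59) in MIM-Astrocytes, and Mt3 and Sox4 below 1 in both, at 0.678 (0.674 to 0.683) and 0.544 (0.501 to 0.589). These differences between libraries were not tested, as each is 1 library.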

How the data were processed

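UMI counts of 3 libraries were used, 1 a group. Per the labels' protocols, the authors aligned the reads with Cell Ranger 3.0.2 to the pre-built mm10 reference with default settings, and the deposited matrices hold raw counts per gene and barcode with no normalization. The submitters' processing notes also name Seurat 3.1.1 without its role. The filter behind the lowest deposited total of 500 UMIs is not given in the sources used here. Gene names came with the deposited feature and barcode lists.

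Barcodes with at least 200 genes and at most 20% mitochondrial UMIs were kept. Doublets were not called or removed. Alternatives dropped the 5% of NSC cells with the most UMIs or changed scaling (including TMM), thresholds, matching and filters. Pools of matched cells were summed and scaled to CPM, with exact Poisson-based 95% intervals for levels, conditional exact intervals for ratios and binomial intervals for shares, all for counting error only. Calls needed a log2 ratio of 1 with 10 CPM added and 50 CPM in either pool. List medians used genes with a mean of 20 CPM over both pools. The calling step was tested on simulated data.

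Named genes were the 8 selecting genes, the 15 largest called ratios in each direction (only 12 were lower), 16 genes named outright (not all are reported here), and examples from 30 lists by size of ratio or level. Mitochondrial, ribosomal protein, haemoglobin, Xist, Tsix and Y-linked genes and clone-like names were left out. Members and lists were chosen with earlier results of these data known. A few named list genes were chosen after their values were seen. Positions are from GENCODE vM21 on GRCm38, promoters from RefSeq (GRCm38.p6, 2147 of 2705 tested genes matched by symbol). Computation used R 4.3.3 with edgeR 4.0.16, for TMM factors only, and Python 3.11.15 with matplotlib 3.10.9, pandas 2.3.3, scipy 1.17.1 and numpy 2.4.6. The seed was 1.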

Additional observations from a re-analysis of the deposited data

Results flagged for a closer look

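For 8 genes the ratio of dividing over matched cells lay on opposite sides of 1 in the NSC and MIM-Astrocytes libraries, with both counting intervals off 1. They were sought among named and listed genes with a mean of 50 CPM or more in both libraries, and the difference was not tested, as each group is 1 library. Atp1b2, a glial sodium pump subunit, had a ratio of 1.32 (1.11 to 1.57) in NSC and 0.865 (0.824 to 0.908) in MIM-Astrocytes, a difference of 0.58 in log2 ratio. Fabp7, the radial glial fatty acid binding protein, had a ratio of 1.18 (1.14 to 1.23) in NSC and 0.841 (0.835 to 0.846) in MIM-Astrocytes, a difference of 0.49 in log2 ratio. Gapdh, a glycolytic enzyme, had a ratio of 1.30 (1.20 to 1.42) in NSC and 0.966 (0.951 to 0.980) in MIM-Astrocytes, a difference of 0.43 in log2 ratio. Gcsh, of the glycine cleavage system, had a ratio of 1.83 (1.40 to 2.40) in NSC and 0.937 (0.900 to 0.975) in MIM-Astrocytes, a difference of 0.87 in log2 ratio. Hes5, a Notch effector, had a ratio of 1.31 (1.09 to 1.56) in NSC and 0.643 (0.584 to 0.708) in MIM-Astrocytes, a difference of 0.90 in log2 ratio. Hist1h2bc, a histone gene, had a ratio of 1.65 (1.30 to 2.11) in NSC and 0.426 (0.415 to 0.436) in MIM-Astrocytes, a difference of 1.89 in log2 ratio. Spry2, a feedback inhibitor of growth factor signalling, had a ratio of 1.12 (1.03 to 1.21) in NSC and 0.956 (0.921 to 0.992) in MIM-Astrocytes, a difference of 0.22 in log2 ratio. Tuba1a, an alpha-tubulin of neural cells, had a ratio of 1.12 (1.02 to 1.22) in NSC and 0.752 (0.731 to 0.774) in MIM-Astrocytes, a difference of 0.56 in log2 ratio. With NSC cells also paired on Malat1 UMIs, the NSC ratio stood at 0.998 for Hes5, 0.930 for Fabp7 and 0.905 for Spry2, on the side of the MIM-Astrocytes ratio. The log2 ratio of Tuba1a in NSC, 0.16, was close in size to the move of -0.14 in the median without Malat1 in the totals. In MIM-Astrocytes Malat1 was 6.43% of UMIs in dividing and 11.2% in matched cells, and its part in those ratios was not tested.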

How the results depend on the processing

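The 181 higher calls held within 1.5 times under 15 of 19 alternatives. They were 117 with a pseudocount of 50 CPM, 291 and 104 with a minimum of 20 and 100 CPM, and 323 at a fold of 1.5. The 12 lower calls moved more, to 52 with totals without Malat1, 26 with each cell weighing the same, 32 with a pseudocount of 1 CPM, 4 with one of 50 CPM, 31 with a minimum of 20 CPM, 113 at a fold of 1.5, 5 against all cells with 0 selecting-gene UMIs, 7 with members at 2 or more UMIs, 19 with members at 5 or more, 36 without the 5% of cells with the most UMIs and 28 with pairing on total and Malat1 UMIs. No called gene among those named or listed changed its direction under any of the 19 alternatives, and of the 42 genes named by rule beyond the selecting genes, 756 of 798 values stayed within their counting interval. Part of this was fixed beforehand: the pseudocount, minimum and fold alternatives leave the CPM ratios unchanged and cannot turn a direction. Scaling by TMM, without Malat1, or without mitochondrial and ribosomal protein genes moved the median log2 ratio by 0.03, -0.14 and 0.02. Such moves are too small to turn a gene called at a log2 ratio of 1. Ratios without a finite value were also counted as within. The filter of at most 10% mitochondrial UMIs gave pools of the same size and the same counts of calls. The 481 members were 340 to 613 under the alternatives. The share at equal depth in NSC, 3.64%, was 15.5% at 2000 UMIs, 5.26% unthinned and 9.95% with 1 or more UMIs. In MIM-Astrocytes, 15.9% became 26.6%, 26.1% and 31.4% in that order, and in Astrocyte 0% became 0.581% with 1 or more. The cause of these moves was not tested, beyond the fewer cells or looser rules that an alternative sets. The shallow libraries limit what can be read: under about 50 CPM a ratio rests on few UMIs. Cells are not replicates, and the variation between cultures is unknown. No paired analysis was possible because each group is 1 library.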
